A study of Mus musculus with 4 samples.

Results

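Immediate-early genes are switched on within minutes of a stimulus, and Nr4a1 and Atf3 are among them. The cells described here are those long-term hematopoietic stem cells (LT-HSCs, the rare marrow cells that can rebuild blood over the long term) in which neither transcript was drawn. They came from 4 droplet libraries of LT-HSCs sorted from C57BL/6 mouse bone marrow at 8 to 11 weeks of age, with 1 library per genotype: Mx, labelled MxCRE and named as the reference control; mice with the NPMc+ allele; mice with the Flt3-ITD allele; and a double mutant, NPMc+/Flt3-ITD. MxCRE is a Cre recombinase under the interferon-inducible Mx1 promoter, NPMc+ is the leukemia-associated cytoplasmic form of nucleophosmin, and Flt3-ITD is a receptor tyrosine kinase made constantly active by an internal tandem duplication. The labels do not say whether the mutant mice also carried MxCRE, how any allele was induced, or how many mice were pooled in a library. A barcode was eligible with at least 2000 UMIs (unique molecular identifiers, which count captured mRNA molecules), no fewer than 1000 genes and no more than 10% mitochondrial UMIs. From each eligible cell 2000 UMIs were drawn at random, and a cell with 0 drawn UMIs of Nr4a1 and 0 of Atf3 was called negative. The cells were thus chosen by measured values, the drawn UMIs of these 2 genes, and levels of the 2 genes in drawn UMIs support nothing. By this rule 6826 of 10217 eligible cells (66.8%) were negative, and the other 3391 were positive. With 1 library per genotype no test between genotypes was possible, so genes were called higher or lower by a fixed fold. Every interval is a 95% interval that covers counting error only. It is exact, except for the ratios of the matched comparison below, where it is a normal approximation.

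Immediate-early genes need no new protein to be transcribed, because the factors that act on them, among them serum response factor and CREB, are already present and are activated by phosphorylation. Their products are mostly transcription factors (the AP-1 proteins, Krüppel-like factors and NR4A nuclear receptors) and feedback proteins that end the signal, and in marrow cells they respond to cytokines, adhesion and the handling of tissue. Nr4a1 encodes an orphan nuclear receptor linked to stem cell quiescence, and Atf3 a stress-induced bZIP factor of the ATF/CREB family. Because these genes chose the cells, the 250 bases upstream of each start are shown, taken from RefSeq (build GRCm38.p6), with the core of the CREB-binding cyclic AMP response element, TGACG on one strand and CGTCA on the other, in capitals.
Nr4a1, chr15:101266596-101266845, plus strand: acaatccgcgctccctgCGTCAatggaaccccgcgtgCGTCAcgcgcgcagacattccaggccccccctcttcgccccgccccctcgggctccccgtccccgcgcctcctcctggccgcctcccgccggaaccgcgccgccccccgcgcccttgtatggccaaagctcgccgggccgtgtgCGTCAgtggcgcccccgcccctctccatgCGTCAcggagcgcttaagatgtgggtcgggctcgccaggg
Atf3, chr1:191183334-191183583, minus strand: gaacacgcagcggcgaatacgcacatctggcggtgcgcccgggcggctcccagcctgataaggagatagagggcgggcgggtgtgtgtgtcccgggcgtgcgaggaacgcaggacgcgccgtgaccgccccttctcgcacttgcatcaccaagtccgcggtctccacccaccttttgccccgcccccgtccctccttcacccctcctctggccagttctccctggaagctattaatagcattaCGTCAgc
Counted from the start, the Nr4a1 window held the core at -233 to -229, -213 to -209, -69 to -65 and -40 to -36, and the Atf3 window held it at -7 to -3. Of 32851 mouse promoter windows of this length, 5836 (17.8%) held the core on either strand and 508 (1.55%) the whole element TGACGTCA, which contains it. A match is a description of the letters and not a binding site. In the GENCODE M21 annotation of mm10, Nr4a1 spans chromosome 15 from 101254269 to 101274795 and Atf3 chromosome 1 from 191170296 to 191218039. Both windows lie inside these spans, so each gene also has an annotated start further upstream, whose window is not shown.

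The share of negative cells, which is the rule itself and was given no test, differed widely between libraries. It was 89.9% in Mx (2196 of 2444 eligible cells, 88.6 to 91), 65.3% in NPMc+ (1519 of 2327, 63.3 to 67.2), 26.7% in Flt3-ITD (608 of 2275, 24.9 to 28.6) and 78.9% in the double mutant (2503 of 3171, 77.5 to 80.3). Negative cells were thus nearly the whole Mx library and a minority of the Flt3-ITD library. With all UMIs of each cell read in place of the drawn ones, the share without either transcript was 71.8% in Mx, against 22.1% in NPMc+, 3.87% in Flt3-ITD and 49.4% in the double mutant, so most negative Flt3-ITD cells held a transcript among the UMIs that had not been drawn.

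The UMIs left over after the draw took no part in choosing the cells, so they show how far the negative cells lacked both transcripts. Among them Nr4a1 stood at 38 (34.8 to 41.3) CPM (counts per 1000000 UMIs) in Mx, 132 (126 to 138) in NPMc+, 424 (406 to 443) in Flt3-ITD and 74.1 (70.0 to 78.3) in the double mutant. The intervals of the 4 libraries did not overlap, and the order, lowest in Mx and highest in Flt3-ITD, was the reverse of the order of the negative shares. Both orders rest on the levels of these genes in the same libraries, so the match is no separate support. Atf3 stood at 5.41 (4.28 to 6.76) CPM in Mx, 54.1 (50.3 to 58.1) in NPMc+, 76.9 (69.4 to 84.9) in Flt3-ITD and 19.1 (17.1 to 21.3) in the double mutant, in the same order. Relative to Mx negative cells, Nr4a1 was 3.47-fold, 11.2-fold and 1.95-fold higher in NPMc+, Flt3-ITD and the double mutant, against 3.56-fold, 14.6-fold and 2.09-fold over all eligible cells. Atf3 was 9.99-fold, 14.2-fold and 3.53-fold higher. The negative cells therefore did not lack the 2 transcripts: Nr4a1 in negative Flt3-ITD cells lay above its level in the positive cells of the other libraries, which was 101 CPM in Mx, 211 in NPMc+ and 167 in the double mutant. Within each library the level in negative cells as a share of that in positive cells was 37.5% in Mx, against 62.5% in NPMc+, 57.7% in Flt3-ITD and 44.4% in the double mutant for Nr4a1, and 26.7%, 44.5%, 42% and 36.9% for Atf3. The share of negative cells with a remaining UMI of Nr4a1 was 18.1% in Mx, against 56.9% in NPMc+, 82.7% in Flt3-ITD and 32.7% in the double mutant, and that with one of Atf3 was 2.55%, 26.7%, 32.1% and 8.19% in the same order. These shares also move with depth, since negative cells held a median of 8229.5, 9764, 9522 and 7738 UMIs in the same order; no cell type known to lack both genes was at hand in the sort to set them against, and the part of free RNA was not tested.

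**Figure D1:**
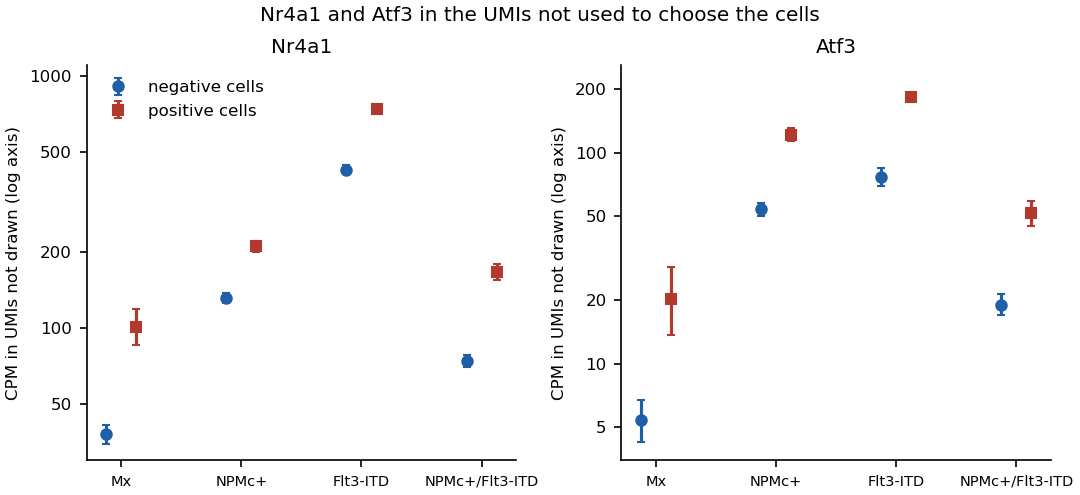
CPM of Nr4a1 (left) and Atf3 (right) in the UMIs that were not drawn, on a log axis, for negative (circles) and positive (squares) cells of each library; bars are 95% counting intervals. In both panels the negative cells of Flt3-ITD are the highest of the 4 negative groups and those of Mx the lowest.

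Negative cells carried HSC markers: all 12 of 12 (Procr, Hlf, Mecom, Slamf1, Kit and others) were detected in each library, with summed levels of 1283 CPM in Mx, against 967 in NPMc+, 606 in Flt3-ITD and 489.6 in the double mutant. Markers of other cells were present too. Summed B cell markers were at 55.3, 987, 315 and 256 CPM in the same order (Pax5 at 0 in every library), T or NK markers at 185, 473, 377 and 2201, megakaryocyte markers at 265, 916, 277 and 228 and mast or basophil markers at 14.6, 112, 61.7 and 903 (Prss34 at 0). Granulocyte markers ranged from 619 to 814 CPM, erythroid markers from 50.3 to 197, monocyte, macrophage or dendritic markers from 359 to 424 (Itgax at 0), endothelial markers from 182 to 230.4 (Cdh5 at 0) and stromal markers from 1.97 to 31.8 (Col1a1, Cxcl12, Dcn and Lum at 0). Their part in the differences below was examined by leaving out cells with 3 or more UMIs of another lineage's markers (10 for erythroid). For the double mutant this gave 355 genes 2-fold higher than Mx and 410 lower, against 435 and 432 with all negative cells. NPMc+ then had 134 higher and 225 lower genes (126 and 199 with all negative cells). Flt3-ITD had 174 and 253 (174 and 236). Whether the markers came from other cell types, doublets or free RNA was not tested. The male share of negative cells that could be sexed by Xist and Y-linked UMIs was 67.8% in Mx, against 68.2% in NPMc+, 58.2% in Flt3-ITD and 93.5% in the double mutant, and 20 barcode sequences occurred in more than 1 library. A counting floor of 3 drawn UMIs corresponds to 0.683 CPM in Mx, against 0.987 in NPMc+, 2.47 in Flt3-ITD and 0.599 in the double mutant, so the Flt3-ITD library, with 608 negative cells, is the least precise.

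The immediate-early programme was higher in the negative cells of all 3 mutants than in those of Mx, although these cells had been chosen for having neither marker of it. Of the 2000 drawn UMIs of a negative cell, the median number from 60 other immediate-early genes was 18 in Mx, against 35 in NPMc+, 54 in Flt3-ITD and 39 in the double mutant. Positive cells had medians of 21, 41, 62 and 49 in the same order, so the negative cells of each mutant had a higher median than the positive cells of Mx, and the step from negative to positive cells was smaller than the step from Mx to any mutant. Just outside the rule, cells with exactly 1 drawn UMI of either gene had medians of 20, 39, 59 and 47. Few mutant cells were low: the share of negative cells at or below the Mx median of 18 was 50.5% in Mx, against 13.8% in NPMc+, 4.77% in Flt3-ITD and 9.71% in the double mutant, and 4.69%, 43.1%, 72.5% and 50.8% lay above the Mx 95th percentile of 38. Summed over the 60 genes the level was 10020.5 CPM in Mx, against 18310.4 in NPMc+, 28399.7 in Flt3-ITD and 21691 in the double mutant, which is 1.83-fold, 2.83-fold and 2.16-fold the Mx value in the 3 mutants. Within a library, positive cells exceeded negative cells by a factor of only 1.12, 1.15, 1.15 and 1.2.

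**Figure D2:**
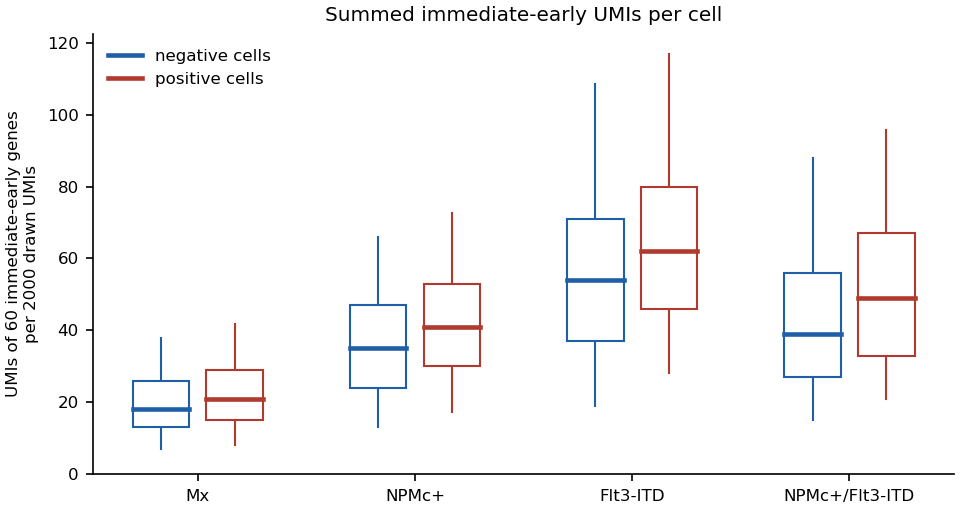
UMIs of 60 immediate-early genes (Nr4a1 and Atf3 not among them) per 2000 drawn UMIs, in negative and positive cells of each library; thick lines are medians, boxes span the quartiles and thin lines the 5th to 95th percentile. Medians of negative cells are 18, 35, 54 and 39 from left to right, and each mutant's negative box lies above the Mx positive median of 21.

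Among the AP-1 factors, which pair as Fos and Jun proteins to bind DNA, the summed level in negative cells was 3887 CPM in Mx, against 8539.5 in NPMc+, 12365 in Flt3-ITD and 10035 in the double mutant. Fos itself stood at 1229.7 CPM in Mx, against 3195 in NPMc+, 4028 in Flt3-ITD and 3939.9 in the double mutant. It was 2.6-fold higher (2.51 to 2.69), 3.28-fold higher (3.15 to 3.41) and 3.2-fold higher (3.11 to 3.3) than Mx in NPMc+, Flt3-ITD and the double mutant, where the bracketed values are counting intervals. Jun, its main partner, was at 1244, 2308, 3317 and 2638 CPM in the order Mx, NPMc+, Flt3-ITD, double mutant, and Fosb at 204, 435, 946 and 807 CPM. Both were lowest in Mx and highest in Flt3-ITD. Of the zinc finger and nuclear receptor factors, Klf2, a Krüppel-like factor that keeps lymphocytes quiescent, stood at 102 CPM in Mx, against 599.7 in NPMc+, 1521 in Flt3-ITD and 769.9 in the double mutant. It was 5.88-fold higher (5.3 to 6.53), 14.9-fold higher (13.4 to 16.6) and 7.55-fold higher (6.84 to 8.34) than Mx. Klf4, a factor of myeloid and epithelial differentiation, was at 23.2, 79.3, 212 and 122 CPM, again in the order Mx, NPMc+, Flt3-ITD, double mutant, and Klf6 at 167, 678, 679 and 926 CPM. Klf2 and Klf4 were highest in Flt3-ITD, whereas Klf6 was highest in the double mutant and nearly equal in the single mutants. Egr1, a zinc finger factor needed for stem cell retention in the niche, was not higher in NPMc+. Its levels were 281, 281, 673 and 379.7 CPM, with Mx and NPMc+ at the same rounded level and a log2 ratio of 1.26 in Flt3-ITD. Of the 12 measured members of its list in NPMc+, 5 lay within 1.5-fold of Mx and 1 was lower. Id1 and Id3, inhibitors of basic helix-loop-helix factors, were at their highest in Flt3-ITD, at 3.64, 10.5, 70.7 and 12.2 CPM and 4.1, 3.29, 60.9 and 6.39 CPM; Id1 was 19.4-fold higher (11.3 to 35.5) there, and the differences between mutants were not tested.

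The feedback and RNA decay genes, which switch the response off, were higher as well. Btg2, an antiproliferative cofactor of mRNA deadenylation, stood at 71.3 CPM in Mx, against 319 in NPMc+, 558 in Flt3-ITD and 628 in the double mutant, 4.48-fold higher (3.94 to 5.1) than Mx in NPMc+ and 8.82-fold higher (7.85 to 9.94) in the double mutant. Cd69, a surface receptor that holds lymphocytes in tissue, was at 12.5, 130.3, 155 and 369 CPM in the order Mx, NPMc+, Flt3-ITD, double mutant. It was lowest in Mx and highest in the double mutant, 29.4-fold higher (22.5 to 39.2). Tnfaip3, the ubiquitin-editing inhibitor of NF-kB, was at 10.5, 38.5, 98.7 and 72.1 CPM, lowest in Mx and highest in Flt3-ITD. Cdkn1a, the p21 inhibitor of cyclin-dependent kinases, was at 19.8, 52, 188 and 126 CPM and was 9.51-fold higher (7.4 to 12.3) than Mx in Flt3-ITD. Counted at 1.5-fold over members at a mean of 20 CPM or more, 6, 7 and 6 of 8, 8 and 7 measured AP-1 factors were higher in NPMc+, Flt3-ITD and the double mutant, and none were lower. For the zinc finger and nuclear receptor factors 6 of 12, 13 of 14 and 7 of 13 were higher and 1, 0 and 1 lower. For the feedback genes 14 of 25, 19 of 26 and 12 of 24 were higher and 1, 0 and 2 lower. Over all genes at that mean, 4.84% were 1.5-fold higher and 8.23% lower in NPMc+. The shares were 5.46% higher and 9.12% lower in Flt3-ITD and 16.3% and 8.8% in the double mutant. The shares of higher members among immediate-early genes lay above these in each comparison. The lists were chosen with earlier results of these data known. A member can also reach the 20 CPM mean through the mutant library alone, which favours higher members, so the counts only describe the lists. The 3 comparisons share the Mx library.

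Most genes that separated a mutant from Mx over all eligible cells also did so among negative cells. Of genes at 20 CPM or more in either library and at least 2-fold apart over all eligible cells, 263 of 281 (93.6%) were also 2-fold apart among negative cells in NPMc+, 270 of 310 (87.1%) in Flt3-ITD and 828 of 840 (98.6%) in the double mutant. No gene changed direction. Negative cells are part of the eligible cells, so these shares are a description, and high shares are partly built in where nearly all cells are negative. In the Flt3-ITD library, where negative cells are the minority, 146 of 165 higher and 124 of 145 lower genes were kept. Of immediate-early genes alone, 18 of 21 in NPMc+, 35 of 38 in Flt3-ITD and 24 of 24 in the double mutant were kept. Leaving out positive cells thus changed few differences, and it also left most of the immediate-early difference in place: the median log2 ratio of the immediate-early lists was 0.75, 1.57 and 0.80 among negative cells, against 0.90, 1.74 and 0.82 over all eligible cells. Even the cells with 0 UMIs of both genes among all their UMIs, of which Flt3-ITD held 88, had medians of 0.87, 1.65 and 0.81.

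**Figure D3:**
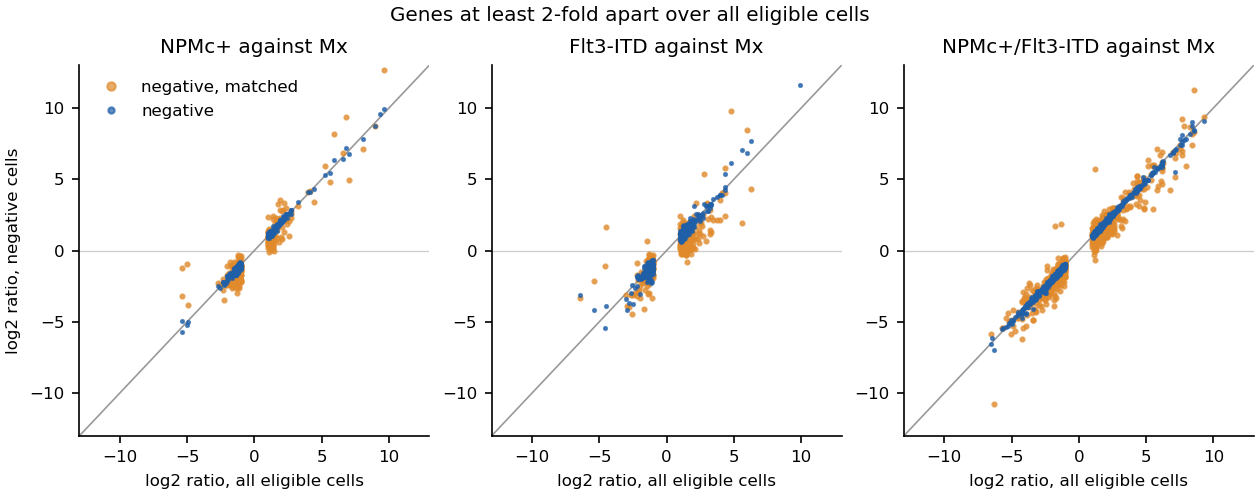
Log2 CPM ratio to Mx of genes at least 2-fold apart over all eligible cells (horizontal axis) against their log2 ratio among negative cells (blue, drawn UMIs) and among negative cells weighted to the Mx distribution of immediate-early UMIs (orange, UMIs not drawn), in 3 panels; the grey line marks equal values, and genes without a matched ratio have no orange point. The blue points follow the line, and the orange points spread away from it, most in Flt3-ITD.

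NPMc+ negative cells differed from Mx negative cells by more transcripts of megakaryocyte, erythroid and mitotic genes and fewer of some class II genes. Stem cell genes went both ways, more of them lower. At 2-fold, 126 of 6728 genes were higher (1.87%) and 199 lower (2.96%). With TMM scaling the split was 156 higher and 155 lower, so the excess of lower genes rests on the scaling. Over all genes at a mean of 20 CPM, 4.84% were 1.5-fold higher and 8.23% lower. The list counts for NPMc+ are to be read against these shares. In the megakaryocyte and platelet list 11 of 21 measured members were 1.5-fold or more higher and 3 lower, with a log2 ratio at the median of 0.80 against 0.01 over all genes. Pf4, the platelet factor 4 chemokine, stood at 89.7 CPM in Mx, against 449 in NPMc+, 106 in Flt3-ITD and 39.8 in the double mutant. It was high in NPMc+ alone, 5.0-fold higher (4.47 to 5.61) than Mx. Itga2b, the platelet integrin subunit CD41, was at 69, 234, 77.3 and 111 CPM in the order Mx, NPMc+, Flt3-ITD, double mutant, and 3.39-fold higher (2.96 to 3.89) in NPMc+. The receptors F2rl2 (a thrombin receptor) and P2ry1 (an ADP receptor of platelets) were 19.8-fold higher (8.7 to 55.4) and 7.02-fold higher (3.91 to 13.5). The platelet list also held 3 lower members, among them Mmrn1, a multimerin shared with stem cells, at 34.6 CPM against 81.7 in Mx. In the erythroid list 5 of 10 measured members were 1.5-fold or more higher and 1 lower. Gata1, the erythroid and megakaryocyte master factor, was 3.2-fold higher (2.44 to 4.23) at 57.6 CPM against 18 in Mx, and Icam4, a red cell adhesion protein, was 3.46-fold higher (2.7 to 4.46). Summed erythroid markers, 4 globin genes among them, were at 197 CPM. Of the G2/M genes 12 of 19 measured members were 1.5-fold or more higher and 0 lower, while of the G1/S genes 1 of 29 was higher. Ube2c, the ubiquitin ligase partner of the anaphase-promoting complex, was at 54 CPM against 10.2 in Mx, 5.27-fold higher (3.77 to 7.5). Birc5 (survivin) and Ccnb2 (cyclin B2) were 2.37-fold higher (1.84 to 3.07) and 2.14-fold higher (1.68 to 2.72). Mki67, the common proliferation marker, was at 17.8, 22.1, 29.6 and 18.6 CPM in the order Mx, NPMc+, Flt3-ITD, double mutant, a smaller spread than that of the G2/M genes named here. Cdkn2c, the p18 inhibitor of CDK4 and CDK6, was 5.02-fold higher (3.88 to 6.57) in NPMc+.

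Stem cell genes lay on both sides of Mx in NPMc+. In the LT-HSC identity list 6 of 37 measured members were 1.5-fold or more higher and 11 lower, with a log2 ratio at the median of -0.25. Hlf, a bZIP factor of self-renewal, stood at 283 CPM in Mx, against 119 in NPMc+, 125 in Flt3-ITD and 89.3 in the double mutant, highest in Mx and 2.38-fold lower (2.11 to 2.68) in NPMc+. Procr, the endothelial protein C receptor used to sort stem cells, was at 117, 98.1, 51.8 and 32 CPM in the order Mx, NPMc+, Flt3-ITD, double mutant, and differed little between Mx and NPMc+ (log2 ratio -0.25). Of Hox genes and cofactors 5 of 9 measured members were 1.5-fold or more higher and 0 lower: Hoxa10 was 1.9-fold higher (1.55 to 2.33) and Nkx2-3, a homeobox factor of spleen and marrow vessels, 2.18-fold higher (1.88 to 2.52), while Hoxa9, the leukemic cofactor of Meis1, had 126, 161, 80.6 and 113 CPM and a log2 ratio of 0.36. Class II antigen presentation had 0 of 7 members higher and 3 lower, and the interferon-stimulated list 2 of 36 higher and 5 lower. Tgtp2, an interferon-inducible GTPase, was 4.6-fold lower (3.1 to 7.06). In the heat shock list 4 of 18 measured members were 1.5-fold or more higher and 0 lower, and 1 chaperone stood out: Hspa1a, the inducible HSP70, was at 12.5, 221, 29.6 and 42.5 CPM and 17.6-fold higher (13.4 to 23.6) in NPMc+. The 1% of negative cells with most Hspa1a UMIs held 14.5% of them in NPMc+ and 63.6% in Mx. Some of the largest ratios came from genes of other cells. Jchain and Ighm, immunoglobulin genes of plasma and B cells, were at 65.8 CPM against 0.455 in Mx (145-fold higher (39.5 to 1202), on 2 UMIs in Mx) and 209 CPM against 2.5 in Mx; 89% of the Jchain UMIs in NPMc+ sat in 1% of its negative cells. The largest lower ratios were those of the neutrophil genes S100a8 (97.9, 2.63, 6.58 and 31 CPM) and S100a9 (70.1, 1.32, 1.64 and 30.4 CPM), for both of which all Mx UMIs sat in 1% of the Mx negative cells. Npm1, the gene of the NPMc+ allele, was at 1560.3, 1805, 1743 and 2006 CPM in the order Mx, NPMc+, Flt3-ITD, double mutant, within 1.5-fold of Mx throughout, and Meis1 at 329.9, 249.5, 158 and 197 CPM. Count tables do not separate the mutant alleles from the normal ones.

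Flt3-ITD negative cells had more transcripts of immediate-early, mitotic, S phase, cytokine feedback and some primary granule genes than Mx negative cells. They had fewer of class II, interferon and stem cell genes. At 2-fold 174 of 6736 genes were higher (2.58%) and 236 lower (3.5%). The excess of lower genes rests on the scaling and on the UMIs read: the split was 195 higher and 196 lower with TMM scaling, and 150 higher and 140 lower with all UMIs of the same cells. Over all genes at a mean of 20 CPM, 5.46% were 1.5-fold higher and 9.12% lower. The list counts for Flt3-ITD are to be read against these shares. In the STAT5 and cytokine feedback list 8 of 17 measured members were 1.5-fold or more higher and 1 lower. Socs2, a STAT5-induced suppressor of cytokine signalling, stood at 38.5 CPM in Mx, against 43.8 in NPMc+, 241 in Flt3-ITD and 509.8 in the double mutant. It was 6.26-fold higher (5.16 to 7.61) than Mx in Flt3-ITD, and NPMc+ lay close to Mx. Its level was nearly the same on both sides of the rule, since Flt3-ITD cells with 0 and with 1 drawn UMI of Nr4a1 or Atf3 had 241 and 251 CPM of Socs2. Socs3, induced by STAT3, was 5.68-fold higher (4.45 to 7.28), and Osm, the cytokine oncostatin M, 6.82-fold higher (4.2 to 11.3). Cish, a second STAT5 target, was at 18.9, 32.3, 35.4 and 39.4 CPM in the order Mx, NPMc+, Flt3-ITD, double mutant, which is under 2-fold in Flt3-ITD. Cd48, absent from LT-HSCs by the usual sorting scheme, was at 27.1, 121, 242 and 640.4 CPM, lowest in Mx and highest in the double mutant, and 8.92-fold higher (7.19 to 11.1) in Flt3-ITD. Cd34, carried by multipotent progenitors, was at 240.2, 158, 345 and 419 CPM, and Flt3 itself at 34.2, 17.4, 24.7 and 62.3 CPM, below 2-fold in Flt3-ITD in both cases. In the myeloid and primary granule list 6 of 12 measured members were 1.5-fold or more higher and 0 lower, several of them low in level. Members such as Ctsg and Elane reach the 20 CPM mean only through this library, so the count only describes the list. Summed granulocyte markers, S100a8 and S100a9 among them, were not higher, at 743 CPM against 814 in Mx. Ctsg (cathepsin G) was at 78.1 CPM against 0.683 in Mx, 114-fold higher (38 to 564), Elane (neutrophil elastase) at 49.3 CPM against 0.683 in Mx, and Mpo (myeloperoxidase) at 90.5 CPM against 9.56 in Mx. The Mx values of Ctsg and Elane are 3 UMIs each. All Elane UMIs sat in 1% of the Flt3-ITD negative cells.

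Class II antigen presentation had the lowest median of the gene lists in Flt3-ITD. There 5 of 8 measured members were at least 1.5-fold lower and 1 higher, with a log2 ratio at the median of -1.08 against -0.05 over all genes. Cd74, the invariant chain, stood at 435 CPM in Mx, against 273 in NPMc+, 54.3 in Flt3-ITD and 194 in the double mutant. It was highest in Mx and lowest in Flt3-ITD, 8.02-fold lower (6.27 to 10.4). H2-Aa and H2-Eb1, chains of the class II molecules themselves, were 6.31-fold lower (4.68 to 8.71) and 13.4-fold lower (7.44 to 27), while H2-Ob, a chain of the accessory molecule H2-O, was 3.43-fold higher (2.14 to 5.49). In the interferon-stimulated list 1 of 32 measured members were 1.5-fold or more higher and 19 lower. Iigp1, an immunity-related GTPase, was 4.06-fold lower (2.73 to 6.29). The Mx reference carries a Cre under an interferon-responsive promoter, and whether Mx mice received an interferon inducer is not in the labels. In the LT-HSC identity list 2 of 35 measured members were 1.5-fold or more higher and 21 lower, with a log2 ratio at the median of -0.67. Procr was 2.25-fold lower (1.73 to 2.98), Mecom (the EVI1 factor) 2.45-fold lower (1.9 to 3.19) at 55.9 CPM against 137 in Mx, Mllt3 (a factor of stem cell maintenance) 3.34-fold lower (2.54 to 4.48) and Meg3, an imprinted noncoding RNA of the Dlk1 locus, 12.9-fold lower (4.94 to 47.7). Cdkn1c, the p57 inhibitor of dormant stem cells, was at 51, 38.2, 25.5 and 14.6 CPM, and Txnip, an inhibitor of glucose uptake, was 2.92-fold lower (2.53 to 3.39). For Procr the log2 ratio was -0.36 in female and -1.69 in male negative cells, and the difference was not tested. Of G1/S genes 11 of 34 measured members were 1.5-fold or more higher and 0 lower, and of G2/M genes 11 of 19 were higher and 1 lower. Rrm2, the ribonucleotide reductase subunit of S phase, was at 19.1, 31.3, 64.1 and 41.7 CPM and 3.35-fold higher (2.43 to 4.62).

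The double mutant had the most 2-fold differences from Mx among negative cells. At 2-fold 435 of 7080 genes were higher (6.14%) and 432 lower (6.1%), and the median of all genes at a mean of 20 CPM was 0.22 on the log2 scale, so list medians are to be read against that shift. TMM scaling lowered it to 0.12 and gave 375 higher and 480 lower. Leaving mitochondrial and ribosomal protein genes out of the total lowered it to 0.02 and gave 379 higher and 714 lower, so the even split also depends on the scaling. Over all genes at a mean of 20 CPM, 16.3% were 1.5-fold higher and 8.8% lower. The list counts for the double mutant are to be read against these shares. Lymphoid and T-lineage genes led the higher side. Of the T-lineage list all 13 of 13 measured members were higher, with a log2 ratio at the median of 6.88; most members reach the 20 CPM mean only through this library, so the count only describes the list. Tcf7, the T cell factor TCF1, stood at 1.37 CPM in Mx, against 2.3 in NPMc+, 2.47 in Flt3-ITD and 304 in the double mutant, 223-fold higher (102 to 607) than Mx. Bcl11b, the T commitment factor, was at 0.683, 0.329, 3.29 and 156 CPM, and Lck, the T cell receptor kinase, at 11.6, 11.8, 18.1 and 274 CPM. Dntt, the terminal transferase of lymphoid progenitors, was at 0.683, 2.96, 28 and 350.0 CPM, 512-fold higher (175 to 2487) on 3 UMIs in Mx. All 4 genes were at low levels outside the double mutant. The 1% of negative cells with most UMIs of a gene held 12.4% of the Tcf7 and 13.2% of the Dntt UMIs of the double mutant. Of the double mutant negative cells 967 (38.6%) held 3 or more drawn UMIs of the T or NK markers and 375 (15%) held 10 or more. In Mx these were 46 (2.09%) and 5 (0.228%). The T or NK markers were thus spread unevenly over the double mutant cells. Cells were not clustered, and whether those with many such UMIs form a T-lineage subset was not tested. Summed T or NK markers were at 2201 CPM in negative and 2066 in positive double mutant cells. Of the multipotent and lymphoid priming list 13 of 19 measured members were 1.5-fold or more higher and 1 lower. Cd48 was 23.6-fold higher (19.7 to 28.6) than Mx. In the myeloid and primary granule list 8 of 13 measured members were 1.5-fold or more higher and 1 lower. Here too a member can reach the 20 CPM mean through the mutant library alone, which favours higher members. Cpa3, a mast cell and progenitor protease, was at 10.9, 79.7, 51 and 803 CPM, 73.5-fold higher (55.3 to 99.8), and Plac8, a myeloid and lymphoid progenitor gene, at 457, 1005, 1192 and 3263 CPM.

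In the STAT5 list the double mutant had 10 of 17 members higher and 1 lower, with a log2 ratio at the median of 0.65. Socs2 was 13.2-fold higher (11.3 to 15.6), above its level in Flt3-ITD, and Pim2, a STAT5-induced survival kinase, 4.55-fold higher (3.75 to 5.55) at 129 CPM against 28.5 in Mx. Cdk6, which drives exit from quiescence, was at 285, 475, 405 and 864 CPM, 3.03-fold higher (2.84 to 3.23). Stem cell genes were lower as a group: 3 of 33 measured members were 1.5-fold or more higher and 20 lower, with a log2 ratio at the median of -1.07. Mmrn1 was at 81.7, 34.6, 9.87 and 2.6 CPM in the order Mx, NPMc+, Flt3-ITD, double mutant, highest in Mx and lowest in the double mutant, 31.5-fold lower (18.2 to 59.7), and Procr was 3.65-fold lower (3.05 to 4.39). Meg3 was not drawn at all in the double mutant and was at least 70.7-fold lower. Ndn (necdin) was at 0.200 CPM against 25.3 in Mx on 1 UMI, Grb10 (a receptor adaptor) at 0.799 CPM against 33.5 in Mx, and Bex1 at 1.4 CPM against 54.9 in Mx. In the 130 female negative cells of the double mutant Esam, an adhesion molecule of stem cells and endothelium, had a log2 ratio of -0.98 to female Mx cells, against -2.51 in male cells; the difference was not tested. Negative cells with UMIs of both Xist and a Y-linked gene, which got no sex call, numbered 185 in Mx, against 185 in NPMc+, 70 in Flt3-ITD and 50 in the double mutant. The ribosomal protein genes Rpl36a-ps1, Rpl37rt and Rps15a-ps5, processed copies whose reads can be shared with their parent genes and which are therefore uncertain, were 94.3-fold lower (45.5 to 236), 34.3-fold lower (27.1 to 44) and 35.3-fold lower (25.5 to 50.1). In the interferon-stimulated list 3 of 35 measured members were 1.5-fold or more higher and 12 lower. Ifitm1 went the other way, at 1435, 1049, 2395 and 2964 CPM and 2.07-fold higher (2.0 to 2.13) in the double mutant. The summed level of the list was not lower in most negative cells. In UMIs not drawn it was 8359 CPM against 5852 in Mx in cells with 10 to 19 drawn immediate-early UMIs. In cells with 50 to 59 it was 7876 against 6996, and the bins between were also higher. At 60 or more it was 6390 against 8329, on 3 Mx cells. Class II had 3 of 8 lower and class I, with the peptide transporter Tap2 2.44-fold higher (2.24 to 2.65), 3 of 16 higher and 0 lower, close to the 16.3% of all genes that were 1.5-fold higher in this library. The erythroid list had 4 of 7 members lower and 0 higher, and Pf4 was 2.26-fold lower (1.9 to 2.69). Both turned in the 130 female cells, where the erythroid median was 0.45 and the log2 ratio of Pf4 0.49, against -1.58 for Pf4 in male cells.

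Other lists are to be read against the share of all genes 1.5-fold higher, 4.84% in NPMc+, 5.46% in Flt3-ITD and 16.3% in the double mutant. In ribosome biogenesis and MYC, 8 of 41 members were higher and 0 lower in NPMc+, 1 of 40 and 2 in Flt3-ITD, and 8 of 40 and 1 in the double mutant. The count of higher members lies above the share of all genes in NPMc+, below it in Flt3-ITD and near it in the double mutant. Srm, the spermidine synthase, was 2.13-fold higher (1.86 to 2.43) in NPMc+. Among chromatin and leukemia regulators 1 of 33 members were higher and 9 lower in NPMc+, 1 of 32 and 4 in Flt3-ITD, and 5 of 34 and 2 in the double mutant. The lower NPMc+ members included the cohesin subunits Stag1 and Stag2, at 54.2, 26.3, 40.3 and 28.8 CPM and 70.6, 34.9, 58.4 and 48.7 CPM in the order Mx, NPMc+, Flt3-ITD, double mutant. For adhesion and niche genes 3 of 16 members were higher and 2 lower in NPMc+, 0 of 17 and 2 in Flt3-ITD, and 6 of 15 and 2 in the double mutant. Esam was at 116, 65.5, 79.8 and 23.8 CPM, lowest in the double mutant. In the list of quiescence genes and cell cycle inhibitors 5 of 23 members were higher and 4 lower in NPMc+, 6 of 21 and 3 in Flt3-ITD, and 7 of 23 and 5 in the double mutant, so inhibitors such as Cdkn1a and Cdkn2c and the stem cell inhibitor Cdkn1c stood on different sides of Mx. Heat shock genes beyond Hspa1a were within 1.5-fold for most members: 4 of 18 members were higher and 0 lower in NPMc+, 2 of 18 and 0 in Flt3-ITD, and 5 of 18 and 0 in the double mutant.

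Because negative mutant cells still carried more immediate-early transcripts, negative cells were also compared at equal numbers of such UMIs. Cells were placed in bins of 10 drawn immediate-early UMIs, from 10 to 59, where every library had at least 20 negative cells, and each library was weighted to the Mx distribution over bins; levels were read from the UMIs that had not been drawn. The number of negative cells in these bins was 1936 in Mx, against 1363 in NPMc+, 366 in Flt3-ITD and 1950 in the double mutant. Summed immediate-early levels were then 1.11-fold, 1.16-fold and 1.14-fold the Mx value in NPMc+, Flt3-ITD and the double mutant. Of genes 2-fold apart over all eligible cells, 214 (76.2%), 192 (61.9%) and 703 (83.7%) stayed 2-fold apart in the same direction. By direction this was 85.3% of lower and 63.6% of higher genes in NPMc+, then 78.6% and 47.3% for Flt3-ITD and 89.8% and 77.5% for the double mutant. With immediate-early genes left out, 71 of 97 (73.2%), 61 of 127 (48%) and 310 of 394 (78.7%) higher genes stayed, in the same order of mutants. Of immediate-early genes 4 of 21, 17 of 38 and 14 of 24 stayed. The bins were made from the summed drawn UMIs of these same genes. Smaller differences in them, above all in abundant ones such as Fos and Jun, are thus partly set by the matching. Without the weighting, 93.4%, 89.8% and 98.6% of the 2-fold differences shown by the UMIs not drawn over all eligible cells were kept among negative cells. Some immediate-early genes stayed apart. Klf2 was 4.23-fold higher (3.96 to 4.52), 4.42-fold higher (4.01 to 4.87) and 5.0-fold higher (4.69 to 5.34) in the 3 mutants after matching, and Cd69 was 20.4-fold higher (17.3 to 24.1) in the double mutant. Id1 and Cdkn1a were 16.3-fold higher (11.2 to 23.7) and 7.27-fold higher (5.89 to 8.98) in Flt3-ITD. Others did not stay apart in Flt3-ITD, where the matched log2 ratios were 0.14 for Fos, 0.06 for Jun and -0.33 for Egr1. Because these genes are part of the sum that made the bins, their matched ratios do not show which differences persist.

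Outside the immediate-early lists the matched comparison left several lineage and cytokine genes apart. Cd48 was 4.48-fold higher (4.01 to 5.02), 10.0-fold higher (8.67 to 11.6) and 26.2-fold higher (23.7 to 28.9), and Socs2 was 5.53-fold higher (4.73 to 6.45) in Flt3-ITD and 17.1-fold higher (15.5 to 18.9) in the double mutant. Pf4 was 10.1-fold higher (9.46 to 10.7) in NPMc+, above its ratio without matching. Megakaryocyte markers differed widely between the bins of NPMc+, as given below. Cd74 was 8.72-fold lower (6.53 to 11.6) in Flt3-ITD, and Hlf was 4.24-fold lower (3.9 to 4.61), 3.29-fold lower (2.7 to 4.0) and 3.51-fold lower (3.24 to 3.81). List medians are given here from the UMIs not drawn, for all negative cells and then for the weighted cells of the bins. The STAT5 and cytokine feedback median went from 0.25 to -0.06 in Flt3-ITD and from 0.50 to 0.69 in the double mutant. For the quiescence genes and cell cycle inhibitors the median went from -0.15 to -0.57 in NPMc+, from 0.15 to -0.27 in Flt3-ITD and from -0.04 to -0.30 in the double mutant. This list shares Cdkn1a with the immediate-early genes that made the bins, so its median is not fully separate from the matching. The weighting moved the cell cycle lists up: the G1/S median went from 0.15 to 0.77, from 0.46 to 1.16 and from 0.37 to 1.0 in the same order, and the G2/M median from 0.72 to 1.49, from 0.51 to 1.06 and from 0.56 to 1.11. LT-HSC identity medians went the other way, from -0.36 to -0.76, from -0.79 to -1.15 and from -1.0 to -1.30.

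**Figure D4:**
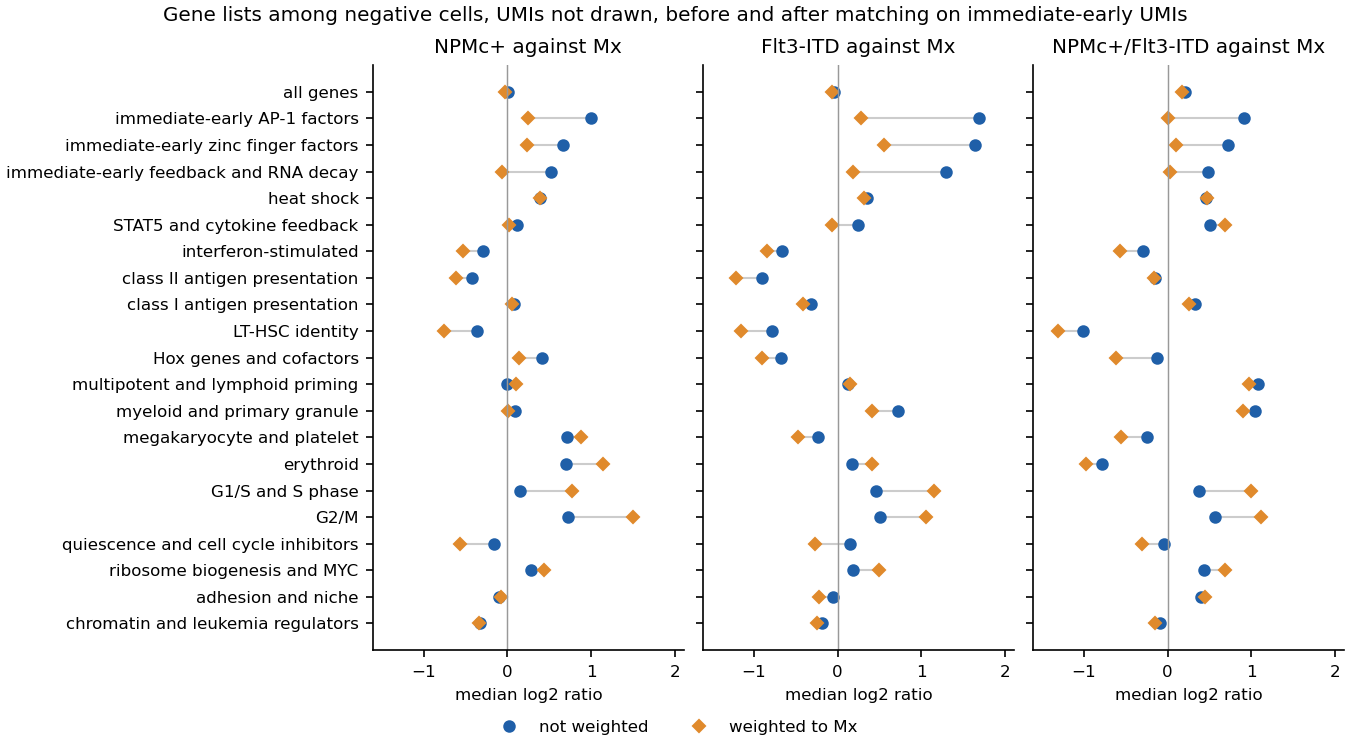
Median log2 CPM ratio to Mx over the measured members of each gene list in the UMIs not drawn of negative cells, without weighting (circles) and weighted to the Mx distribution of immediate-early UMIs (diamonds), in 3 panels, with the median of all genes at the top; the T-lineage list is not drawn because its double mutant median lies off the scale. The immediate-early lists, on which the cells were matched, move to near 0 or part of the way there. The cell cycle lists move up and the LT-HSC identity list moves down in all 3 panels.

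Cells low in immediate-early UMIs were a different mixture in each library, which bears on the matched values. In Mx negative cells the summed G1/S genes went from 2973 CPM at 10 to 19 immediate-early UMIs to 1303 at 40 to 49, and HSC markers went from 1068 to 1694. In NPMc+ the same bins gave 4786 and 1683 CPM of G1/S genes and 518 and 1158 of HSC markers, in Flt3-ITD 5668 and 3635 and 364 and 604, and in the double mutant 5635 and 2788 and 337 and 483. In each library, cells with few immediate-early UMIs thus held more S phase and fewer stem cell transcripts, and at every bin from 10 to 49 the mutants were above Mx in G1/S genes and below it in HSC markers. The lowest matched bin held 27 Flt3-ITD cells, which carried 49.3% of the weight and a median of 16009 UMIs, against 8678 in Mx. Granulocyte markers in these Flt3-ITD cells summed to 3147 CPM, against 494 in the same bin of Mx, and B cell markers in NPMc+ to 4601 against 49.1. Megakaryocyte markers, Pf4 among them, summed to 1959 CPM in NPMc+ against 313 in Mx in that bin. At 50 to 59 immediate-early UMIs they summed to 559 CPM in NPMc+ against 279 in Mx. Doublets and cells of other types in these bins were not tested as a source of the matched values.

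**Figure D5:**
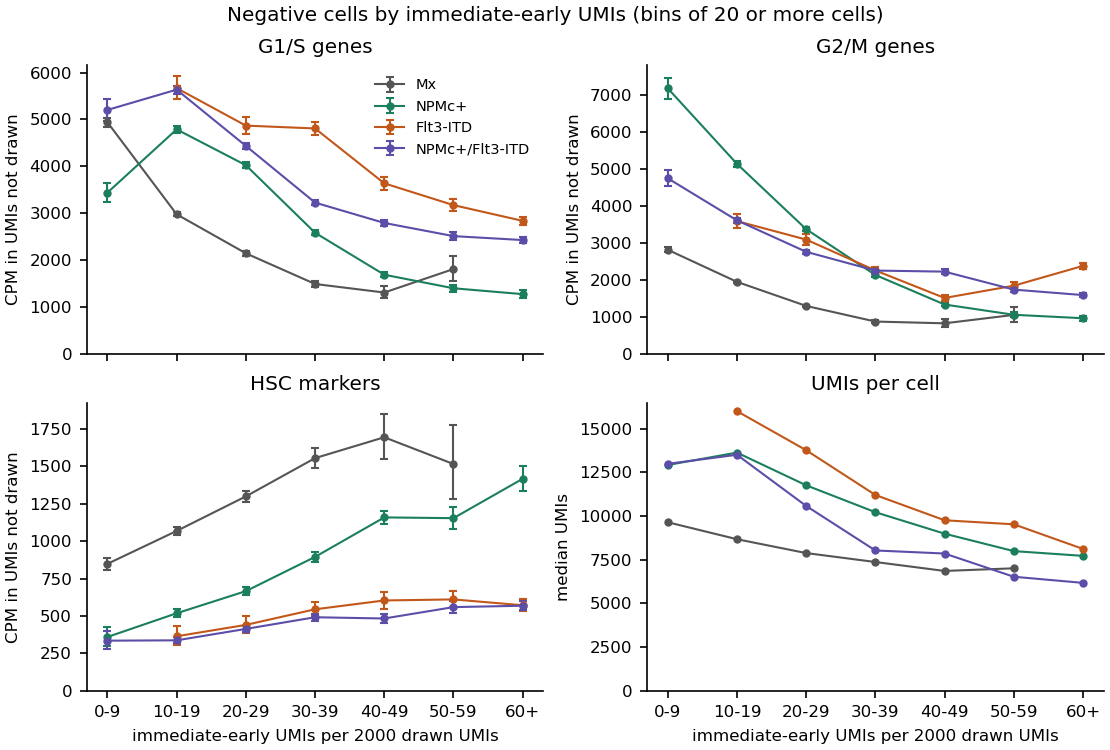
Negative cells of each library by their immediate-early UMIs per 2000 drawn UMIs (horizontal axis, bins of 20 or more cells): summed CPM of G1/S genes, G2/M genes and HSC markers in the UMIs not drawn, with 95% counting intervals, and the median UMIs per cell. G1/S levels and UMIs per cell fall from the 10-19 to the 40-49 bin in all 4 libraries while HSC markers rise.

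A few genes that were 2-fold apart over all eligible cells came nearest to no difference among negative cells. In Flt3-ITD, where this left out most cells, they were Hist2h2aa1 (log2 ratio 1.04 over all eligible and 0.58 over negative cells), Kpna1 (1.04 and 0.65), Xaf1 (-1.03 and -0.67), Dab2ip (-1.06 and -0.69), Mapk6 (1.15 and 0.69) and the AP-1 member Fosl2 (1.02 and 0.72). Each kept its direction. All 6 were near the 20 CPM floor, at 14.8 to 32.1 CPM or 18 to 39 drawn UMIs in Flt3-ITD. In NPMc+ the nearest was Ly96, the MD-2 partner of the endotoxin receptor (-1.07 and -0.62), and Cebpb, a myeloid bZIP factor, was also among them (1.08 and 0.90). In the double mutant Rgs10 and Socs3 were among the nearest, the latter at 1.03 and 0.95.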

How the data were processed

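Deposited UMI count tables of 4 libraries (10x Single Cell 3' v2) were used as raw counts; per the submitters' processing notes the authors used STARsolo, STAR 2.7.0c and mm10. The depth was 95244127 UMIs in 11407 barcodes (20991611, 25101833, 22076194 and 27074489 in the order of the report). How barcodes were filtered before deposit is not given in the sources used here, no doublet caller was run, and no doublets were removed. Samples were grouped by the genotype label. The cells, gene lists, marker lists and alternatives were chosen with earlier results of these data known. Of 26687 symbols 25415 matched GENCODE M21.

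Each eligible cell was thinned to 2000 UMIs (seed 1). Drawn UMIs were summed over negative cells and divided by their total to give CPM; genes at 20 CPM in either library were called at 2-fold, and list members at a mean of 20 CPM at 1.5-fold. Shares have Clopper-Pearson, levels exact Poisson and ratios conditional Clopper-Pearson intervals. Matched ratios have approximate normal intervals on the log scale. UMIs of one cell are not independent of its state, so intervals cover counting error only and no variation between mice. A level of 0 was set to 3 UMIs for a bound. Named genes were taken from the 10 with the highest and the 10 with the lowest ratio per comparison, the 6 genes 2-fold apart over all eligible cells and nearest 0 among negative cells, the 4 members of each list furthest from 0, and 26 others written down by name, such as Socs2, Cd48 and Hlf; the rankings left out clone names, mitochondrial, immunoglobulin, T cell receptor, Xist and Y-linked genes. The sums and ratios were tested on simulated data. Python 3.11.15, numpy 2.4.6 and scipy 1.17.1 were used, with edgeR 4.0.16 for TMM factors only. A cell was sexed by UMIs of Xist or of Y-linked genes.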

Additional observations from a re-analysis of the deposited data

Results flagged for a closer look

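In the double mutant 2 of the genes named above lay on opposite sides of Mx in male and in female negative cells by at least 2-fold in each, with 20 or more drawn UMIs in at least 1 library per sex. Cd74, the class II invariant chain, had a log2 ratio of 1.12 in female cells (135 drawn UMIs in the double mutant and 245 in Mx) and -1.48 in male cells (671 and 1092 UMIs). Iigp1, an interferon-inducible GTPase, had 1.02 in female cells (38 and 74 UMIs) and -2.04 in male cells (79 and 189). The difference between the sexes was not tested. The female cells number 130 in the double mutant and 514 in Mx, and the male cells 1862 and 1084.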

How the results depend on the processing

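The number of cells limits the Flt3-ITD values most, with 608 negative cells. With 1 library per genotype nothing separates genotype from mouse, sort or capture, and these cannot be told apart. The labels give no replicate numbers. No paired analysis was possible because each genotype has 1 library. Of 18 alternatives planned and 2 added after seeing the data, those that moved a count of 2-fold genes by over 1.5 times are given below with their counts. The median over the 3 immediate-early lists together stayed above 0 under all but the weighting by drawn UMIs. The causes of the moves below were not tested beyond what each alternative's construction shows.

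With 0 UMIs of both genes demanded among all UMIs of a cell, the share of cells chosen was 49.4% for the double mutant, 71.8% for Mx, 3.87% for Flt3-ITD and 22.1% for NPMc+, and 2-fold higher genes numbered 519 in Flt3-ITD. There 2-fold lower genes numbered 658 in Flt3-ITD, and the share kept from all eligible cells was 79.7% in NPMc+, 69% in Flt3-ITD and 96.5% in the double mutant. With 4000 UMIs drawn, the share of cells chosen was 66.5% for the double mutant, 83.2% for Mx, 10.6% for Flt3-ITD and 45.8% for NPMc+, and the share kept from all eligible cells was 97.4% in the double mutant. With 0 drawn UMIs of 8 further immediate-early genes demanded as well (22 Flt3-ITD cells), the share of cells chosen was 5.99% for the double mutant, 25.5% for Mx, 0.967% for Flt3-ITD and 12% for NPMc+, and 2-fold higher genes numbered 251 in NPMc+, 2482 in Flt3-ITD and 777 in the double mutant. Here 2-fold lower genes numbered 557 in NPMc+, 533 in Flt3-ITD and 754 in the double mutant, and the share kept from all eligible cells was 74.4% in NPMc+, 45.2% in Flt3-ITD and 86.2% in the double mutant. In that case the median log2 ratio of the immediate-early lists was 0.65 in Flt3-ITD and 0.36 in the double mutant, and Atf3 in the remaining UMIs was 8.0-fold Mx in Flt3-ITD and 2.08-fold Mx in the double mutant. The log2 ratio changed sign for Meg3 in Flt3-ITD (1.12), Cdkn1c in Flt3-ITD (0.48) and Rrm2 in Flt3-ITD (-0.13). With all UMIs of the same cells, 2-fold lower genes numbered 140 in Flt3-ITD, and the share kept from all eligible cells was 92.6% in Flt3-ITD. With the UMIs not drawn, 2-fold lower genes numbered 147 in Flt3-ITD. At a floor of 10 CPM, 2-fold higher genes numbered 197 in NPMc+ and 283 in Flt3-ITD, and 2-fold lower genes numbered 419 in NPMc+, 534 in Flt3-ITD and 692 in the double mutant. At 50 CPM, 2-fold higher genes numbered 73 in NPMc+, 101 in Flt3-ITD and 243 in the double mutant, and 2-fold lower genes numbered 61 in NPMc+, 68 in Flt3-ITD and 248 in the double mutant. Here the share kept from all eligible cells was 92.9% in Flt3-ITD. With 3 UMIs in each library in place of a floor, 2-fold higher genes numbered 453 in NPMc+, 669 in Flt3-ITD and 956 in the double mutant, and 2-fold lower genes numbered 1052 in NPMc+, 723 in Flt3-ITD and 1513 in the double mutant. In that case the share kept from all eligible cells was 82.6% in NPMc+, 67.3% in Flt3-ITD and 92.2% in the double mutant. With TMM scaling, the share kept from all eligible cells was 89.7% in NPMc+. With mitochondrial and ribosomal protein genes left out of the total, 2-fold lower genes numbered 324 in NPMc+, 407 in Flt3-ITD and 714 in the double mutant, and the share kept from all eligible cells was 96.2% in the double mutant. In male cells, 2-fold lower genes numbered 473 in Flt3-ITD, and the share kept from all eligible cells was 87.5% in NPMc+, 80.8% in Flt3-ITD and 96.4% in the double mutant. In female cells, the share of cells chosen was 70.1% for NPMc+, 24.2% for Flt3-ITD and 74.7% for the double mutant, and 2-fold higher genes numbered 247 in NPMc+, 310 in Flt3-ITD and 713 in the double mutant. In that case 2-fold lower genes numbered 400 in NPMc+ and 505 in Flt3-ITD, and the share kept from all eligible cells was 86.2% in NPMc+, 76.5% in Flt3-ITD and 83.4% in the double mutant. There Atf3 in the remaining UMIs was 2.35-fold Mx in the double mutant, and the log2 ratio changed sign for Id1 in NPMc+ (-0.21), S100a8 in Flt3-ITD (1.84), S100a9 in Flt3-ITD (1.52), the median of the list erythroid in the double mutant (0.45), Pf4 in the double mutant (0.49), Cd74 in the double mutant (1.12) and Iigp1 in the double mutant (1.02). Without cells that held 3 or more UMIs of another lineage's markers (10 for erythroid), the share of cells chosen was 77.2% for the double mutant, and the share kept from all eligible cells was 88.4% in NPMc+ and 95.5% in the double mutant. With at most 5% mitochondrial UMIs allowed, the share kept from all eligible cells was 97.3% in the double mutant. Without the top 1% of cells of each gene, the share kept from all eligible cells was 96.6% in the double mutant. Weighted to the Mx immediate-early distribution with drawn UMIs, 2-fold higher genes numbered 247 in NPMc+ and 548 in Flt3-ITD, and 2-fold lower genes numbered 451 in NPMc+ and 968 in Flt3-ITD. In that case the share kept from all eligible cells was 80.4% in NPMc+, 64.5% in Flt3-ITD and 87.4% in the double mutant, and the median log2 ratio of the immediate-early lists was -0.054 in NPMc+, 0.30 in Flt3-ITD and -0.083 in the double mutant. The log2 ratio changed sign for the median of the list immediate-early zinc finger and nuclear receptor factors in NPMc+ (-0.041), the median of the list immediate-early feedback and RNA decay in NPMc+ (-0.22), Fos in Flt3-ITD (-0.12), Jun in Flt3-ITD (-0.11), Egr1 in Flt3-ITD (-0.59), Hspa1a in Flt3-ITD (-0.77), S100a8 in Flt3-ITD (3.11), the median of the list immediate-early zinc finger and nuclear receptor factors in the double mutant (-0.062), the median of the list immediate-early feedback and RNA decay in the double mutant (-0.15) and Jun in the double mutant (-0.30). The same weighting read from the UMIs not drawn, the matched comparison above, was chosen after seeing the data; under it 2-fold higher genes numbered 230 in NPMc+ and 270 in Flt3-ITD, and 2-fold lower genes numbered 369 in NPMc+ and 459 in Flt3-ITD. There the share kept from all eligible cells was 76.2% in NPMc+, 61.9% in Flt3-ITD and 83.7% in the double mutant, and the median log2 ratio of the immediate-early lists was 0.17 in NPMc+, 0.38 in Flt3-ITD and 0.069 in the double mutant. The log2 ratio changed sign for the median of the list immediate-early feedback and RNA decay in NPMc+ (-0.060), Egr1 in Flt3-ITD (-0.33), Hspa1a in Flt3-ITD (-0.78), S100a8 in Flt3-ITD (1.68), H2-Ob in Flt3-ITD (-0.021) and Jun in the double mutant (-0.30). Restricted to bins from 20 immediate-early UMIs up, also chosen after seeing the data, 2-fold higher genes numbered 229 in NPMc+ and 308 in Flt3-ITD, and 2-fold lower genes numbered 388 in NPMc+ and 519 in Flt3-ITD. Under this setting the share kept from all eligible cells was 78.3% in NPMc+, 62.6% in Flt3-ITD and 84.2% in the double mutant, and the median log2 ratio of the immediate-early lists was 0.16 in NPMc+, 0.50 in Flt3-ITD and 0.089 in the double mutant. The log2 ratio changed sign for Jun in Flt3-ITD (-0.18), Egr1 in Flt3-ITD (-0.10), Hspa1a in Flt3-ITD (-0.22) and Jun in the double mutant (-0.31).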
